A study of Mus musculus with 22 samples.

Results

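Ighv12-3 (IGHV12-3 in the tables) is a mouse heavy chain V segment on chr12:114366521-114366954, minus strand, in GRCm38, where GENCODE vM21 lists it as ENSMUSG00000076676.2 with 2 exons. The rearrangements described here are all sequences of 22 kidney B cell libraries whose first V segment name was IGHV12-3, which gave 3216 of 17178 sequences (18.7%) and 24730 of 123192 reads. Wild-type female C57BL/6 mice aged 8 to 10 weeks had UPEC, uropathogenic Escherichia coli (5 mice), or PBS (6 mice) instilled into the bladder, 2 times, and were analysed at day 56. An anti-CD45 antibody injected into the blood before death labelled cells inside vessels, so that kidney B cells could be sorted into an extravascular fraction, which the antibody did not reach, and an intravascular fraction. Both fractions of all 11 mice gave a heavy chain library of 244 to 2134 sequences and 936 to 18956 reads, in a PBS extravascular, a PBS intravascular, a UPEC extravascular and a UPEC intravascular group. All mice are of 1 strain, and neither surface phenotype nor antigen binding was measured on the sequenced cells, so the B-1a origin implied by the segment's name was not tested here.

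B-1a cells are a B cell lineage laid down largely before and around birth that secretes natural IgM and is maintained by self-renewal. A well-known specificity among them is for phosphatidylcholine, a membrane lipid exposed on damaged cells, and it is carried mainly by antibodies that use Ighv11-2 or Ighv12-3. The heavy chain CDR3 is the loop made where V, D and J segments are joined. In phosphatidylcholine-binding Ighv12-3 antibodies this loop is known to be 10 residues long with glycine at position 4, and it usually ends in residues given by Ighj1. Terminal transferase adds nontemplated N nucleotides at the joins and is scarce in early life.

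The germline pieces show where such a loop comes from. They were read from GRCm38 and are given 5' to 3' on the coding strand. Capitals mark the codon of CDR3 position 1 in Ighv12-3, the glycine codon in Ighd2-3 and the codons of positions 5 to 10 in Ighj1. Position 1 is the residue 3 places after the conserved cysteine, and position 10 is the last before the conserved tryptophan.
Ighv12-3 from the cysteine codon, chr12:114366521-114366534: tgtgcaggaGACag
Ighd2-3, chr12:113475400-113475416: tctatgatGGTtactac
Ighj1, chr12:113429781-113429833: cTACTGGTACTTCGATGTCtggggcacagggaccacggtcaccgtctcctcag
Joined end to end with some trimming, these 3 segments give a loop of the described kind, and a junction assigned to these 3 with no inserted base was the most frequent extravascular Ighv12-3 clonotype in PBS mouse 1 and UPEC mice 1, 3 and 5. A clonotype is defined here by the V segment, the J segment and the CDR3 nucleotides from the cysteine to the tryptophan codon.

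The leading clonotypes of the extravascular libraries are shown because each is the most frequent of its library. Together they hold 1259 of the 2880 extravascular Ighv12-3 sequences (43.7%), with 10.5% in UPEC mouse 1 and 91.7% in PBS mouse 6 as the extremes. Capitals mark the codon of position 4 in loops of 10 residues.
PBS mouse 1 and UPEC mice 1 and 3, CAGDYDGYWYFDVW: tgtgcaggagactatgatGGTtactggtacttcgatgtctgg
PBS mouse 2, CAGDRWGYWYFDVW: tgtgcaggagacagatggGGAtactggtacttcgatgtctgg
PBS mouse 3, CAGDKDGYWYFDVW: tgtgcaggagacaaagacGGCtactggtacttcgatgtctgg
PBS mouse 4, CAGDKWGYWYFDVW: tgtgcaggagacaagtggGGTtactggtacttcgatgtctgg
PBS mouse 5, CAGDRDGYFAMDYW: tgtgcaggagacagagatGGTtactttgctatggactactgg
PBS mouse 6, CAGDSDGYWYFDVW: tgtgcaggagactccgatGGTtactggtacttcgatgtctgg
UPEC mouse 2, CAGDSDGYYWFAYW: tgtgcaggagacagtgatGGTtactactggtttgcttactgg
UPEC mouse 4, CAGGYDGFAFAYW: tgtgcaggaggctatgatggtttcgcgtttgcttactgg
UPEC mouse 5, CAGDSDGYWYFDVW: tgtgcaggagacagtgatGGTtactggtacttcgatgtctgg
In 10 of the 11 mice the leading extravascular loop had 10 residues and glycine at position 4, from different codons. The exception was UPEC mouse 4, with a 9-residue loop. Ighj1 was the partner in 8 of the 11, Ighj4 in PBS mouse 5 and Ighj3 in UPEC mice 2 and 4. PBS mouse 6 and UPEC mouse 5 had the same loop at the protein level from different codons at position 2, while PBS mouse 1 and UPEC mouse 3 had the same nucleotides.

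The last pair of libraries stands apart. The extravascular libraries of PBS mouse 1 and UPEC mouse 3 held 71 identical Ighv12-3 V-D-J sequences, against at most 6 in any other of the 220 pairs of libraries from different mice, and 59 of the 71 carried the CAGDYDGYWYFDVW junction. The 71 made up 8.93% of the distinct Ighv12-3 sequences of PBS mouse 1 and 15.0% of those of UPEC mouse 3. The same pair shared 10 Ighv11-2 sequences and 0 of any other V segment, and the largest clonotypes outside Ighv12-3, with 431 sequences in PBS mouse 1 and 138 in UPEC mouse 3, were each absent from the other library. Whether RNA or reads passed between these 2 libraries was not tested, and the compartment differences of the shares in PBS mice, of the share of sequences in UPEC mice and of the glycine loop in PBS mice, and the counts of CDR3s found in several mice, are also given without them. A further feature of the tables is that a clonotype's sequences were mostly rare neighbours of 1 sequence. In PBS mouse 4, the leading clonotype had 218 sequences with 1944 reads, of which 1 sequence held 1030 reads and the median sequence 3. CDR3s that differed at 1 nt from a CDR3 with the same V and J and at least 5 times as many sequences in that library were therefore also merged into CDR3 families. Merging turned 553 Ighv12-3 clonotypes, summed over libraries, into 216 families. Whether the 1-nt neighbours arose in the cells or during sequencing was not tested.

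Ighv12-3 was the most frequent V segment in 5 of 11 extravascular and 0 of 11 intravascular libraries. In PBS mice 1 to 6 it made up 39.3%, 16.5%, 24.1%, 29.9%, 18.7% and 1.05% of extravascular sequences. In the same mice it made up 3.79%, 5.49%, 5.02%, 2.63%, 3.20% and 1.80% of intravascular sequences. The extravascular share was above the intravascular one in 5 of 6 mice, and those 5 were all above the highest intravascular share of 5.49%. The mean difference was 17.9 percentage points (SD 12.7, n = 6, exact two-sided signed-rank test, p = 0.0625, adjusted over the 5 measures tested here 0.0781). In PBS mouse 6 the 12 extravascular and 11 intravascular Ighv12-3 sequences gave 95% Wilson intervals of 0.599% to 1.82% and 1.01% to 3.19%, which cover counting error only and take sequences as independent. Without PBS mouse 1 the mean difference was 14.4 points (n = 5, exact p = 0.125). A share of sequences cannot tell more cells of a type from more RNA per cell.

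In UPEC mice 1 to 5 the extravascular shares were 7.79%, 35.1%, 44.8%, 6.86% and 20.0%, and the intravascular shares 8.91%, 4.61%, 3.62%, 14.4% and 7.69%. In UPEC mice 2, 3 and 5 the extravascular share was the higher, whereas in UPEC mice 1 and 4 the intravascular share was the higher. Sequences of a family are not independent, and 27 of the 51 extravascular Ighv12-3 sequences of UPEC mouse 4 were 1 family. The mean difference was 15.1 points (SD 20.6, n = 5, exact signed-rank test, p = 0.3125, where 0.0625 is the smallest p that 5 pairs can give), and 8.54 points without UPEC mouse 3. Extravascular shares averaged 22.9% ± 16.8 (SD, n = 5) after UPEC and 21.6% ± 13.0 (SD, n = 6) after PBS (exact Mann-Whitney test, p = 0.931). Intravascular shares averaged 7.85% ± 4.25 (SD, n = 5) after UPEC and 3.65% ± 1.41 (SD, n = 6) after PBS, with overlapping ranges (exact Mann-Whitney test, p = 0.0823, adjusted 0.137). An exact permutation test of the difference of means gave p = 0.0303 for the latter, and so did the rank test after merging 1-nt sequence variants. Without UPEC mouse 4, the highest library, the intravascular difference fell from 4.19 to 2.56 points (exact Mann-Whitney test, p = 0.171). The compartment difference was not shown to change with UPEC (change of -2.86 points, exact permutation test, p = 0.786).

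**Figure D1:**
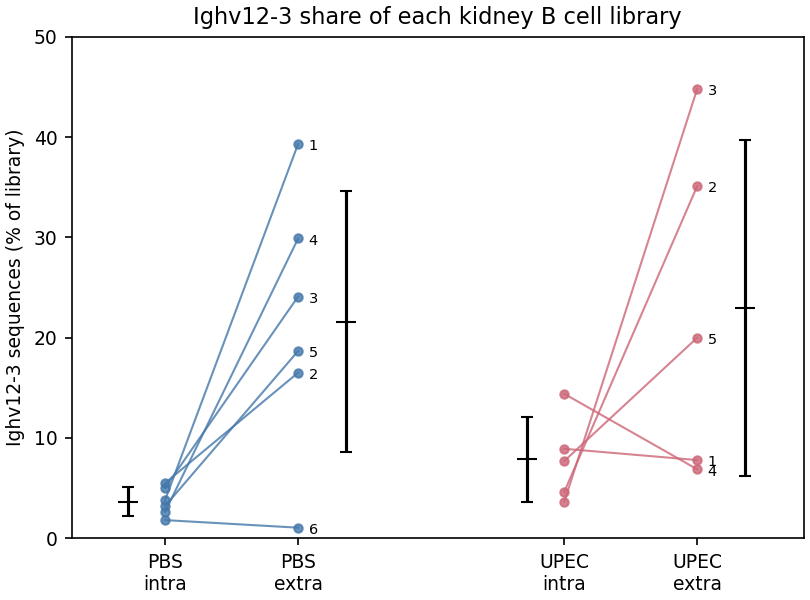
Ighv12-3 sequences as a percentage of each library, with the 2 libraries of a mouse joined by a line, mouse numbers at the extravascular points, and mean ± SD of each group in black. PBS mice 1 to 5 climb to at least 16.5% outside the vessels, PBS mouse 6 stays near 1%, and the lines of UPEC mice 1 and 4 fall.

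Among all V segments outside the vessels, Ighv12-3 ranked first in PBS mice 1 and 4 and UPEC mice 2, 3 and 5, and at rank 2 to 4 in the other extravascular libraries apart from PBS mouse 6, where 11 segments were more frequent. Inside the vessels it ranked from 2 in UPEC mouse 4 and 4 in UPEC mice 1 and 5 to between 9 and 10 in PBS mouse 4. In a limma fit on log2 shares with mouse as a block, 18 segments could be tested and 6 of them (33.3%) had an adjusted p under 0.05 between the compartments of PBS mice, 2 of them higher and 4 lower outside the vessels. The 2 were Ighv12-3 (log2 difference 2.07, SE 0.74, adjusted p = 0.0433) and Ighv11-2 (log2 difference 2.21, SE 0.68, adjusted p = 0.0428). The Ighv12-3 call was lost when any 1 of PBS mice 1 to 5 was left out (adjusted p from 0.0945 to 0.149), without UPEC mouse 4 or 5 (adjusted p = 0.0524 and 0.0515), for shares of clonotypes (adjusted p = 0.0508) and without a filter on rare segments (adjusted p = 0.110). The corresponding counts by limma were 0 of 18 (0%) for compartments in UPEC mice, for UPEC against PBS in either compartment and for the change of the compartment difference, with 4, 1, 1 and 0 segments at an unadjusted p under 0.05. The single segment for UPEC against PBS inside the vessels was Ighv12-3 (limma log2 difference 1.02, SE 0.43, unadjusted p = 0.0344, adjusted p = 0.599). In the UPEC mice the log2 difference of Ighv12-3 was 1.33 (SE 0.81, adjusted p = 0.431).

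Ighv11-2, the other phosphatidylcholine-type segment, was the most like Ighv12-3 of the 17 other segments frequent enough to be tested. Over the 22 libraries the Spearman correlation of their shares was 0.64, a description only, since libraries of a mouse and the shared total are not independent. The next of the 17 were Ighv1-55 at 0.22 and Ighv1-53 at 0.02. Ighv11-2 made up 3.94% ± 2.26 (SD, n = 6) of PBS extravascular, 1.03% ± 0.782 (SD, n = 6) of PBS intravascular, 3.33% ± 1.56 (SD, n = 5) of UPEC extravascular and 2.06% ± 2.27 (SD, n = 5) of UPEC intravascular sequences. Ighv11-1, its close relative, was named in 2 sequences, and Ighv7-1, another segment linked to B-1 cells, in 0.

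A few CDR3 families carried the extravascular share. The largest family alone held 29.6% to 100% of the Ighv12-3 sequences of PBS extravascular libraries, with 248, 127, 194, 245, 133 and 12 sequences in mice 1 to 6. In UPEC extravascular libraries it held 221 of 241 sequences in mouse 2 and 167 of 494 in mouse 3, but 2 of 19 in mouse 1. Families of at least 20 sequences numbered 8, 3, 5, 1, 1 and 0 in PBS mice 1 to 6 and 0, 2, 8, 1 and 3 in UPEC mice 1 to 5 outside the vessels. Inside the vessels only UPEC mouse 4 had any, with 3. That library held 135 Ighv12-3 sequences and the other intravascular ones 11 to 32 each, so this cut-off cannot compare the compartments. The numbers of families overlapped between the compartments, with 19, 5, 9, 6, 2 and 1 in PBS extravascular libraries and 9, 18, 6, 4, 10 and 6 in the intravascular ones.

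Counted as clonotypes, Ighv12-3 took 13.4% ± 12.3 (SD, n = 6) of PBS extravascular and 2.84% ± 1.45 (SD, n = 6) of intravascular clonotypes (difference 10.5 points, exact signed-rank test, p = 0.0625, higher in 5 of 6 mice). PBS mouse 1, with 118 of its 325 extravascular clonotypes, weighed most, and without it the difference was 5.84 points (n = 5, exact p = 0.125). After merging into families the shares were 4.75% ± 6.30 and 2.86% ± 1.48 (difference 1.89 points, n = 6, exact signed-rank test, p = 1), and without PBS mouse 1 the difference turned to -0.711 points (n = 5, exact p = 0.625). In UPEC mice the clonotype shares were 12.6% outside and 5.08% inside (difference 7.49 points, exact signed-rank test, p = 0.3125, higher in 4 of 5). The family shares of UPEC mice differed by 0.846 points (n = 5, higher in 2 of 5). Ighv12-3 clonotypes were larger than those of the other V segments in the same extravascular libraries, with 6.61 ± 2.26 sequences per clonotype, 3.51 ± 2.02 more than the others (SD, n = 10 mice, exact signed-rank test, p = 0.00391, adjusted 0.00651, larger in 9 of 10). The remaining difference was 1.09 sequences after merging 1-nt sequence variants (exact p = 0.00977). PBS mouse 6, with 2 Ighv12-3 clonotypes, has no value in this and the following comparisons, which required 3. Single other segments could have larger clonotypes than Ighv12-3. Outside the vessels of PBS mouse 1, Ighv12-3 had 839 sequences in 118 clonotypes and Ighv3-3 had 487 in 47. In PBS mouse 3, Ighv12-3 had 412 in 55 and Ighv11-2 had 88 in 6.

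**Figure D2:**
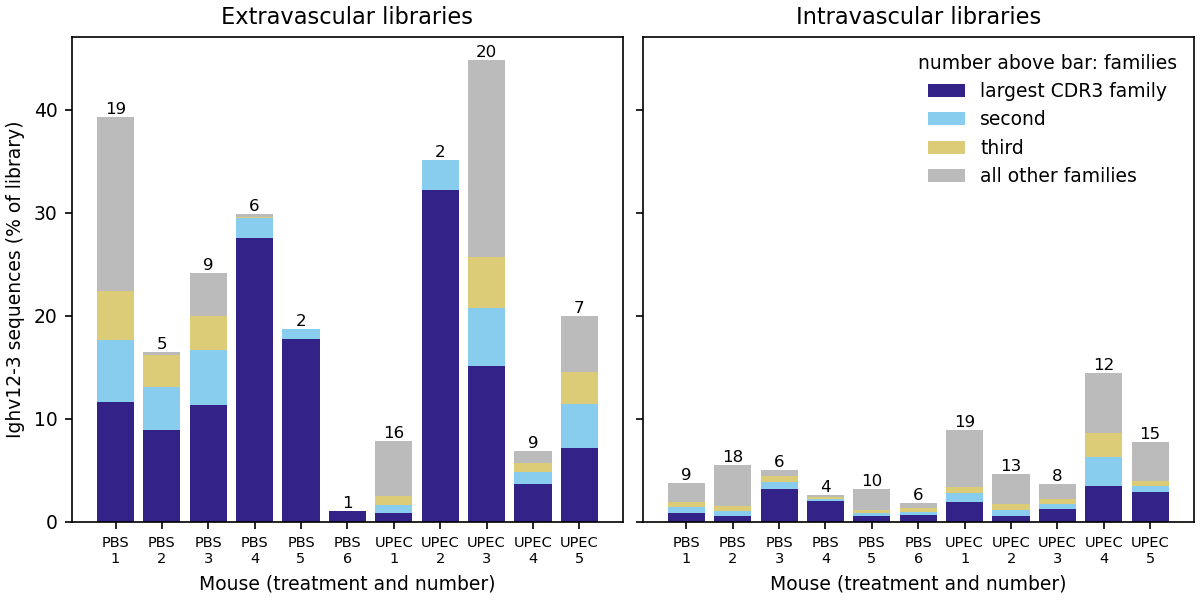
Stacked bars give the percentage of each library made up by the 3 largest and all other Ighv12-3 CDR3 families, with the number of families above each bar. Tall extravascular bars in PBS mice 4 and 5 and UPEC mouse 2 consist almost wholly of 1 family. Intravascular bars reach 14.4% in UPEC mouse 4 and stay under 10% in the other mice, with 4 to 19 families each.

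The loop itself was closely constrained. Of the 216 Ighv12-3 families, 165 (76.4%) had a 10-residue CDR3, and 152 of those (92.1%) had glycine at position 4. Among 5435 families of the other V segments, 14.5% had 10 residues, and tyrosine was the most frequent residue at position 4 (22.8%) ahead of glycine (16.6%). A narrow length was shared by Ighv11-2. Its 71 extravascular families ran from 8 to 10 residues, and the 96 extravascular Ighv12-3 families from 5 to 14. Of all 110 Ighv11-2 families, 39.1% had 10 residues, and 6.98% of those had glycine at position 4. The remaining Ighv12-3 families ran from 5 to 15 residues, with 13 families of 12 residues and 12 of 14 residues forming the next largest classes. Compared within the extravascular library of each mouse, 85.7% ± 13.9 of Ighv12-3 clonotypes and 2.59% ± 1.86 of other clonotypes had 10 residues and glycine at position 4 (SD, n = 10, exact signed-rank test, p = 0.00195, adjusted 0.00488, higher in 10 of 10). Over families this difference was 73.5 points (n = 8, exact p = 0.00781).

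Within the 165 loops of 10 residues, position 1 was aspartate in 97.0%, the residue encoded by the V segment. Position 2 varied most, with 17 residues, led by arginine (36.4%) and serine (18.2%). At position 3 there were 15 residues, led by aspartate (40.0%) and tyrosine (13.9%). Downstream the loop narrowed again, to tyrosine at position 5 (83.0%), tryptophan at position 6 (49.7%), tyrosine at position 7 (77.0%), phenylalanine at position 8 (88.5%) and aspartate at position 9 (92.1%). Position 10 was valine (55.2%), as in Ighj1, or tyrosine (43.6%), as in the other J segments. The glycine codon was GGT, as in the Ighd2-3 stretch shown, in 105 of 152 families (69.1%), and lay wholly within the assigned D segment in 115 (75.7%).

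**Figure D3:**
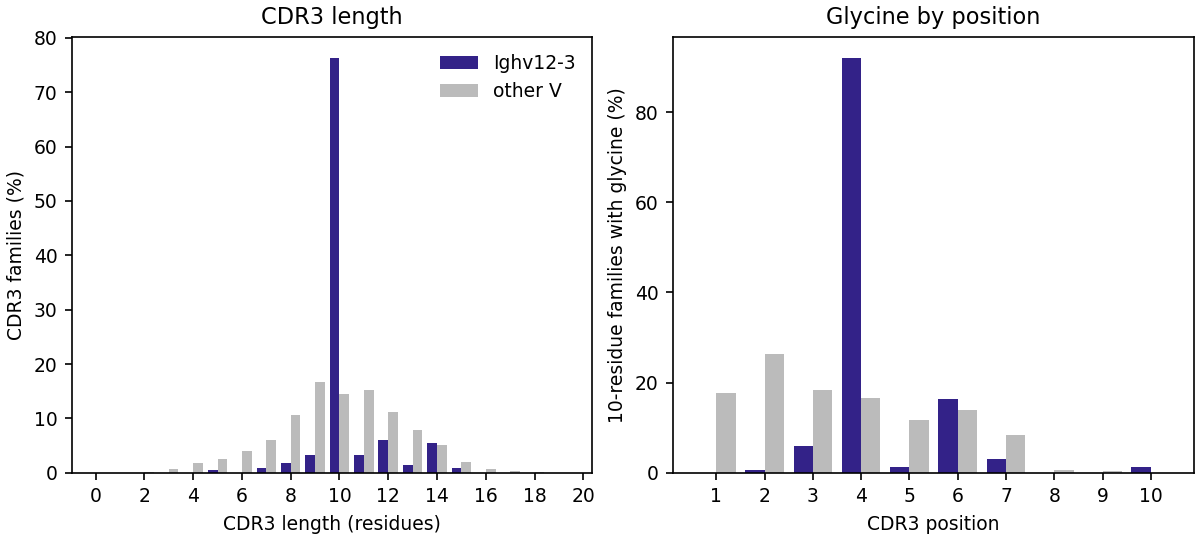
Left, percentage of CDR3 families by CDR3 length in residues; right, percentage of 10-residue families with glycine at each position, for Ighv12-3 (dark) and all other V segments (grey). Ighv12-3 rises to 76.4% at 10 residues and to 92.1% glycine at position 4, where other segments reach 14.5% and 16.6%.

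The glycine loop was less general inside the vessels of PBS mice. In PBS mice 1 to 5, 87.3%, 100%, 89.1%, 88.6% and 94.1% of extravascular Ighv12-3 clonotypes had it, against 44.4%, 61.1%, 50.0%, 20.0% and 60.0% of the intravascular ones, so that the compartments did not overlap. The mean difference was 44.7 points (SD 13.7, n = 5, exact signed-rank test, p = 0.0625, the smallest p of 5 pairs, adjusted 0.0781). Without PBS mouse 1 it was 45.2 points (n = 4, exact p = 0.125). Without the pairing of libraries by mouse, which admits the intravascular library of PBS mouse 6, the difference was 44.2 points (exact Mann-Whitney test, p = 0.004329). This is the smallest p that 6 against 5 libraries can give, and the test takes the 2 libraries of a mouse as independent. Over families the paired difference was 37.0 points in the 4 mice that could be used (exact p = 0.125). PBS mouse 5 was left out because its 17 extravascular clonotypes made only 2 families. Its family values went the other way, with 50.0% outside and 60.0% inside the vessels. The intravascular values over clonotypes rest on 5 to 18 clonotypes a library. PBS intravascular libraries led with other loops in PBS mouse 4, whose most frequent junction had serine at position 4, and in PBS mice 5 and 6, with 14 and 12 residues. The first of these, with the position 4 codon in capitals, is shown for contrast.
PBS mouse 4, intravascular: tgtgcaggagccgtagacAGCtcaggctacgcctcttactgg

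In UPEC mice 1 to 5 the glycine loop made up 93.8%, 92.9%, 79.7%, 50.0% and 81.8% of extravascular and 89.5%, 38.5%, 75.0%, 89.3% and 75.0% of intravascular Ighv12-3 clonotypes, and these ranges overlapped. The extravascular value was the higher in 4 of 5 mice. The mean difference was 6.19 points (SD 33.2, n = 5, exact signed-rank test, p = 0.4375), with -5.86 points without UPEC mouse 2 and 17.6 without UPEC mouse 4. It turned to -0.134 when each sequence was counted. Over families it was -9.92 points in 4 mice. UPEC mouse 2 had too few families to be used, so merging was not the only change. Over clonotypes, the compartment difference was 38.5 points smaller in UPEC than in PBS mice (exact permutation test, p = 0.0397, adjusted 0.119). Over families it was 46.9 points smaller (n = 4 and 4, exact permutation test, p = 0.0286, the smallest p of 4 against 4). PBS mouse 5 and UPEC mouse 2 had too few families to be used, and both went against this change. Over families, PBS mouse 5 had 50.0% outside and 60.0% inside, and UPEC mouse 2 had 100% outside and 38.5% inside. The p over clonotypes passed 0.05 when PBS mouse 1, 2, 3 or 4 or UPEC mouse 1, 3, 4 or 5 was left out (exact p from 0.0635 to 0.0873), with a change of -27.1 points without UPEC mouse 4. Intravascular libraries gave 73.4% ± 20.8 (SD, n = 5) after UPEC and 47.6% ± 15.0 (SD, n = 6) after PBS (exact Mann-Whitney test, p = 0.0714, adjusted 0.137). Without UPEC mouse 2, which lay far below the other 4, the intravascular difference was 34.6 points (exact p = 0.00952).

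Ighj1, which encodes the end of the typical loop, was joined to 115 of the 216 Ighv12-3 families (53.2%), ahead of Ighj2 with 49, Ighj3 with 34 and Ighj4 with 18. In extravascular libraries it took 57.1% ± 35.9 of Ighv12-3 clonotypes and 22.7% ± 6.57 of the others (SD, n = 10, exact signed-rank test, p = 0.0195, higher in 8 of 10 mice). Counting each sequence left a difference of 32.0 points (exact p = 0.0645). The spread among mice was wide, from 0% in PBS mouse 5 and UPEC mouse 2, each led by a family with another J segment, to 98.2% in PBS mouse 3. In PBS mice 1 to 5, Ighj1 took 84.7%, 74.2%, 98.2%, 85.7% and 0% of extravascular and 44.4%, 44.4%, 50.0%, 20.0% and 20.0% of intravascular clonotypes (difference 32.8 points, exact signed-rank test, p = 0.125). In UPEC mice 1 to 5 the values were 62.5%, 0%, 77.2%, 25.0% and 63.6% outside and 57.9%, 53.8%, 87.5%, 60.7% and 43.8% inside the vessels (difference -15.1 points, exact signed-rank test, p = 0.4375). The latter was -5.38 points without UPEC mouse 2, -9.91 without mouse 4 and -23.8 without mouse 5. The change of the difference was -47.9 points (exact permutation test, p = 0.0476, adjusted 0.119), and the p passed 0.05 when PBS mouse 1, 2, 3 or 4 or UPEC mouse 1, 2, 3 or 4 was left out (exact p from 0.0556 to 0.103).

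**Figure D4:**
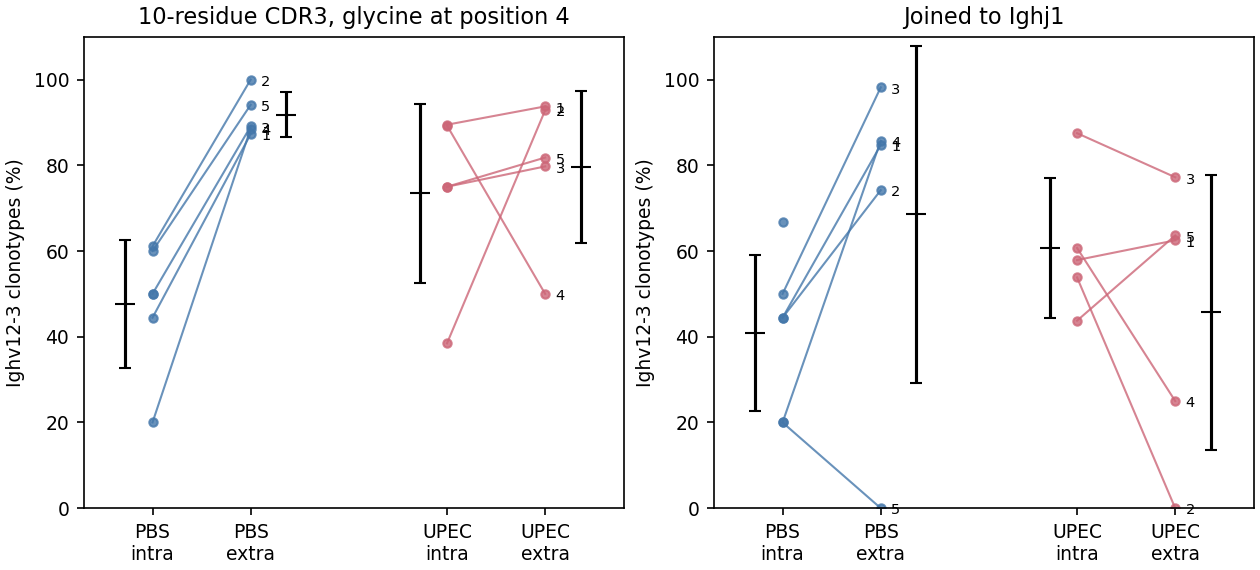
Percentage of Ighv12-3 clonotypes with a 10-residue CDR3 and glycine at position 4 (left) and joined to Ighj1 (right), by library, with lines joining the libraries of a mouse and mean ± SD in black. In PBS mice the left panel goes from 20.0% to 61.1% inside to at least 87.3% outside the vessels, and UPEC lines cross in both panels.

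Among D segments, Ighd2-3 was assigned to 36.6% of Ighv12-3 families and 44.3% of clonotypes, Ighd1-1 to 18.1% and 14.3%, Ighd4-1 to 12.5% and 8.50%, and Ighd2-4 to 5.56% and 2.53%. The assigned stretch of D had a median of 8 nt and was shorter than 8 nt in 40.7% of families, so names of D segments rest on few bases.

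Inserted nucleotides, here all bases that lie outside the matched V, D and J stretches, depended on how junctions were counted. Mean insertions in PBS mice 1 to 5 were 5.41, 5.61, 5.43, 6.76 and 4.88 nt per extravascular clonotype and 2.78, 3.67, 5.17, 6.40 and 3.70 nt per intravascular clonotype (difference 1.27 nt, SD 1.02, exact signed-rank test, p = 0.0625). Counting each sequence turned the difference to -2.50 nt (n = 5, exact p = 0.0625), keeping sequences of at least 3 reads left 0.319 nt (exact p = 0.625), and merging 1-nt neighbours turned it to -1.44 nt (n = 4, exact p = 0.25). The leading junctions themselves held few insertions, with 0 nt in 8 of the 11 extravascular libraries. Outside the vessels, insertions averaged 4.10 nt per clonotype after UPEC and 5.62 nt after PBS (difference -1.51 nt, n = 5 and 5, exact Mann-Whitney test, p = 0.0952, adjusted 0.370). Against the other V segments of the same extravascular libraries, Ighv12-3 had fewer inserted nucleotides per clonotype, 4.86 ± 1.37 against 6.26 ± 0.749 nt (SD, n = 10, exact signed-rank test, p = 0.0195, lower in 8 of 10), and the difference was -2.99 nt over families (n = 8, exact p = 0.00781). Per clonotype it was -2.29 nt in the UPEC mice (lower in 5 of 5, exact p = 0.0625) and -0.516 nt in the PBS mice (lower in 3 of 5, exact p = 0.4375). No insertion at all was found in 41 of 216 Ighv12-3 families (19.0%), 4.93% of families of the other V segments and 59.1% of the 110 Ighv11-2 families, given as pooled counts without a test.

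**Figure D5:**
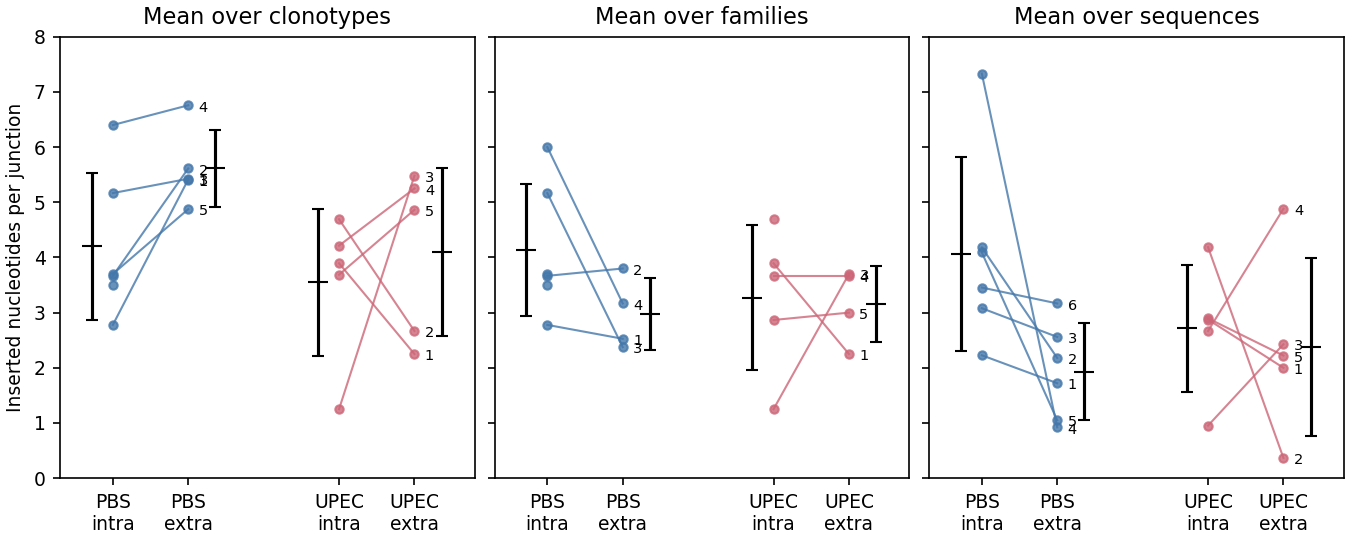
Mean inserted nucleotides per Ighv12-3 junction in each library with at least 3 units, averaged over clonotypes, over CDR3 families and over sequences, with mean ± SD in black. PBS lines climb from intravascular to extravascular in the first panel and mostly fall in the other two.

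CDR3s recurred between mice. At the protein level, 20 of 161 family CDR3s (12.4%, with V and J) were found in at least 2 mice, covering 46.9% of Ighv12-3 sequences. The corresponding shares were 30.8% of 39 CDR3s for Ighv11-2 and 0.362% of 5255 for the remaining V segments. At the nucleotide level 9 of 183 Ighv12-3 junctions (4.92%) recurred. Without PBS mouse 1 and UPEC mouse 3 together, an alternative added after seeing the data, 11 of 130 protein CDR3s (8.46%) and 5 of 140 junctions (3.57%) recurred, covering 31.6% and 16.1% of sequences. A recurring loop, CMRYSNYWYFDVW, lacks the CAG start that Ighv12-3 encodes, so its V assignment is doubtful, and 19 protein CDR3s and 8 junctions recurred among those with that start. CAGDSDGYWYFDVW was found in 7 of 11 mice, 4 of them PBS mice, from 3 nucleotide sequences. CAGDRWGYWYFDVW was found in 4 mice from 4 nucleotide sequences. Those in 3 mice were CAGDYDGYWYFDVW, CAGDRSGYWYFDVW, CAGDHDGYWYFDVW, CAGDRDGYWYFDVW and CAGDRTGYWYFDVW, which end as Ighj1 encodes, and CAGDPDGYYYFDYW, which ends as Ighj2 does. All 8 have 10 residues and glycine at position 4, and the first 7 differ from each other at positions 2 and 3 alone. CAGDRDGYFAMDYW had the most sequences of the CDR3s in 2 mice, with 135. The most widespread nucleotide junction, found in 6 mice, was that of UPEC mouse 5 printed above, where it had 61 extravascular sequences, while the other 5 mice had it inside the vessels with 20 sequences in all. The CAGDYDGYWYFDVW junction of PBS mouse 1 had 417 extravascular and 8 intravascular sequences in 3 mice after merging. Most of these sequences lie in PBS mouse 1 and UPEC mouse 3.

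Some CDR3s were found in both fractions of the same mouse, counted here before 1-nt neighbours were merged. This was so for 19 Ighv12-3 junctions in 6 of 11 mice: 2 in PBS mouse 1, 1 in PBS mouse 5, 6 in UPEC mouse 1, 4 in UPEC mouse 3, 5 in UPEC mouse 4 and 1 in UPEC mouse 5. An extravascular library shared 1.73 junctions on average with the intravascular library of its own mouse and 0.16 with that of another mouse. In PBS mouse 5 the shared junction was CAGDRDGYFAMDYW, with 117 sequences outside and 1 inside. In UPEC mouse 3, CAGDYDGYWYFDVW, the junction it shares with PBS mouse 1, had 133 sequences outside and 1 inside, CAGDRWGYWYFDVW 18 and 7, and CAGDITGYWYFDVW 26 and 3. In UPEC mouse 4, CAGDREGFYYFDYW had 5 sequences outside and 26 inside, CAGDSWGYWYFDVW 3 and 11, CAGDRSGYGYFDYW 9 and 8, and the remaining 2 junctions 1 or 2 on either side. Of these 2, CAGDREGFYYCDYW differs from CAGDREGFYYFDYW at 1 nt. In UPEC mouse 1 all 6 shared junctions had 1 or 2 sequences outside and 1 to 7 inside. The shared junctions covered 0% to 83.6% of extravascular Ighv12-3 sequences in PBS mice and 0% to 38.3% in UPEC mice. Whether cells, RNA or reads passed between the 2 fractions of a mouse was not tested.

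Ighv12-3 was almost wholly IgM. Of its 3216 sequences, 3200 carried Ighm and 16 Ighd, and 0 carried a switched constant region, which allows a share of up to 0.0933%, whereas 437 of 13962 sequences of the other V segments did. Ighv11-2 was similar, with 98.4% Ighm and 2 of 550 sequences switched. The isotype names after the first are cut from the tables and were taken in alphabetical order, so Ighm and Ighd rest on that order. In extravascular libraries 99.5% ± 1.23 of Ighv12-3 and 85.8% ± 11.6 of other sequences carried Ighm (SD, n = 10, exact signed-rank test, p = 0.00195, adjusted 0.00488, higher in 10 of 10 mice). Ighd was found in 5 of 2880 extravascular and 11 of 336 intravascular Ighv12-3 sequences, and 9 of these 16 had the glycine loop. Of the Ighv12-3 sequences with Ighm, 91.5% had that loop. The other V segments carried Ighd in 6.68% of extravascular and 15.0% of intravascular sequences.

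The V segment itself was close to germline. In the 3140 sequences that could be aligned, mismatches to the GRCm38 segment before the cysteine codon averaged 0.281% of bases in PBS extravascular, 0.140% in PBS intravascular, 0.233% in UPEC extravascular and 0.141% in UPEC intravascular libraries, and group means of 97.5% to 99.7% of sequences had at most 1 mismatch. Sequences with no mismatch averaged 28.6% in PBS extravascular (26.4% to 36.4%), 63.7% in PBS intravascular, 40.3% in UPEC extravascular and 63.6% in UPEC intravascular libraries, so most PBS extravascular sequences carried a mismatch. The most-read sequence of a family had no mismatch in 209 of 216 families (96.8%). The part of the low-read neighbours of expanded families in the mismatch shares was not tested.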

How the data were processed

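Heavy chain (Igh) libraries of extravascular and intravascular kidney B cells from 11 mice were analysed. The authors filtered reads by quality, merged read pairs, collapsed reads by barcode, assigned constant regions by matching to IMGT references, dropped those seen in only 1 read, and used IMGT/V-QUEST for annotation. The deposited tables hold 1 line per retained sequence, with segment names, sequences and positions (other units), and 9 read counts by isotype in each sequence's name. The deposited isotype names are cut after the first, Igha, and were taken in alphabetical order, which could not be checked. The genome build used for annotation is not given in the sources used here, so GRCm38 with GENCODE vM21 served only for germline sequences and coordinates.

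Members were all sequences whose first V name was IGHV12-3. This segment, the measures and the gene lists were chosen with earlier results of these data known, and CDR3 families were added after seeing the data. Libraries of a mouse share its number in the labels, so compartments were compared by an exact two-sided signed-rank test over mice, treatments by an exact two-sided Mann-Whitney test, and the change of the compartment difference by an exact permutation test, each adjusted over 5 measures by the Benjamini-Hochberg method (SciPy 1.17.1). Measures averaged over clonotypes required 3 clonotypes in a library. Shares of V segments were compared with limma 3.58.1 in R 4.3.3, on log2 values computed from the deposited sequences with a prior of 0.5 scaled to the library total, for segments with at least 10 sequences in at least 3 libraries, 18 of 80 named; the test was tried on simulated data. Named CDR3s were each library's most frequent clonotype and those found in at least 3 mice. Wilson intervals and the limit of 3 counts for a share of 0 cover counting error only. Alternatives were read weights, a minimum of 3 reads, other clonotype definitions, unpaired tests and leaving out each mouse.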

Additional observations from a re-analysis of the deposited data

Results flagged for a closer look

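Within groups, 2 libraries lay far from the others of their group by Dixon's criterion at the 95% level, among 24 groups of values examined, and chance flags about 1 in 20. Ighj1 was joined to 0% of Ighv12-3 clonotypes in PBS extravascular mouse 5, where the next lowest of the 5 libraries had 74.2%. The 17 clonotypes of mouse 5 made only 2 CDR3 families, and over families PBS extravascular mouse 2 had 40.0%. The 10-residue loop with glycine at position 4 made up 38.5% of Ighv12-3 clonotypes in UPEC intravascular mouse 2, where the next lowest of the 5 had 75.0%, and that library held 13 Ighv12-3 clonotypes.

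Between treatments, 2 compartment differences were not the same by an exact permutation test. The extravascular excess of the glycine loop was 38.5 points smaller after UPEC, a change of -38.5 (exact permutation test, p = 0.0397, adjusted 0.119). For Ighj1 the mean compartment difference was 32.8 points in PBS mice and turned to -15.1 points in UPEC mice. That is a change of -47.9 points (exact permutation test, p = 0.0476, adjusted 0.119). Neither passed after adjustment over 5 measures.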

How the results depend on the processing

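The excess of the glycine loop, of Ighm and of sequences per clonotype in Ighv12-3 over other V segments, extravascular over both treatments, kept its direction and side of 0.05 under all alternatives run. Its Ighj1 excess was 32.0 points (exact p = 0.0645) with each sequence counted.

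Without pairing by mouse, only 1 call changed. The PBS compartment difference of the glycine loop was 44.2 points (exact Mann-Whitney test, p = 0.004329, the smallest of 6 against 5 libraries). In UPEC mice it turned to -0.134 with each sequence counted. With CDR3 variants merged, which also left out UPEC mouse 2 for too few families, it was -9.92. After UPEC, intravascular, it was 31.0 points (exact p = 0.0455) with each sequence counted and 25.9 (exact p = 0.0390) by a permutation of means. The intravascular share of sequences was 4.26 points higher (exact p = 0.0303) with sequence variants merged and 4.19 (exact p = 0.0303) by permutation. Extravascular, the treatment difference turned to -0.816 for sequences (each clonotype once), and to 0.459 (CDR3 variants merged) and 0.783 (at least 3 reads) for clonotypes. The Ighj1 change was -36.8 (merged, exact p = 0.0857), -45.7 (each sequence, exact p = 0.0635) and -40.9 (at least 3 reads, exact p = 0.0714). The merged value also lacks PBS mouse 5 and UPEC mouse 2, which had too few families.

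Insertions depended most on the unit. With CDR3 variants merged and with each sequence counted, the PBS compartment difference was -1.44 and -2.50 nt, the extravascular treatment difference 0.187 and 0.694 nt, and the change 1.67 and 2.16 nt. The merged values lack PBS mouse 5 and UPEC mouse 2, which had too few families. The UPEC compartment difference was -0.336 nt with each sequence counted. The extravascular treatment difference, -1.51 nt (exact p = 0.0952) as reported, was -1.74 nt for amino acid clonotypes (exact p = 0.0159) and -1.60 nt for at least 3 reads (exact p = 0.0317). Without PBS mouse 1 and UPEC mouse 3 together, the CDR3s found in at least 2 mice went from 20 to 11 (protein) and from 9 to 5 (nucleotides). Without a filter, 1 of 80 V segments was called between PBS compartments. The causes were not tested.

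Leaving out each mouse in turn, treatment differences ranged as follows. Extravascular, they were -40.0 to -11.5 points for Ighj1, -1.86 to -1.05 nt for insertions, -4.99 to 3.77 points for clonotypes and -4.14 to 5.35 for sequences. Intravascular, they were 13.1 to 25.0 for Ighj1, 20.3 to 34.6 for the glycine loop, 1.78 to 2.96 for clonotypes and 2.56 to 5.25 for sequences. Changes with UPEC ranged from -61.1 to -38.2 for Ighj1, -50.6 to -27.1 for the glycine loop, -7.95 to 1.65 for clonotypes and -9.39 to 2.80 for sequences. UPEC compartment differences ranged from -0.365 to 1.20 nt for insertions, -5.86 to 17.6 points for the glycine loop and -23.8 to -5.38 for Ighj1. The compartment difference of family shares, an alternative added after seeing the data, ranged from -0.711 to 2.91 points in PBS and -1.09 to 1.80 in UPEC mice, below 0 only without PBS mouse 1 and without UPEC mouse 3, respectively. A p under 0.05 was reached without PBS mouse 5 (Ighj1, extravascular), PBS mouse 6 (Ighj1, intravascular), UPEC mouse 2 (glycine loop, intravascular) and UPEC mouse 3 (intravascular shares, and extravascular insertions). In limma, the extravascular treatment difference ranged from -0.47 to 0.61 for Ighv12-3 and -0.44 to 0.16 for Ighv11-2, and segments called from 0 to 6 (PBS compartments), 0 to 3 (UPEC compartments), 0 to 1 (treatment, extravascular) and 0 to 1 (change). PBS calls fell to 0 without PBS mouse 1, 3, 4 or 5.

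Ighv12-3 had 11 to 135 sequences in an intravascular library, and 5 pairs of mice cannot give a p below 0.0625.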

Other observations

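A single Ighv12-3 sequence each in PBS extravascular mouse 1 and UPEC intravascular mouse 4 carried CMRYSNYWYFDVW, a loop without the CAG start found in 95.4% of Ighv12-3 families, so the V assignment of these 2 sequences is doubtful. It was chosen after its values were seen.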
